A study of Homo sapiens with 120 samples.

Results

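Transcripts of the human chaperonins, the cytosolic complex TRiC and the mitochondrial pair HSP60 and HSP10, were followed in U2OS cells over 24 h of untreated culture and of 3 stress treatments. The members were the rows of the count and TPM tables with the gene names TCP1, CCT2, CCT3, CCT4, CCT5, CCT6A, CCT7 and CCT8, which encode the 8 TRiC subunits, and HSPD1 and HSPE1, which encode HSP60 and HSP10. All 10 members were found among 57665 genes, and all 10 were among the 26998 genes that passed the filter on low counts. U2OS is a human osteosarcoma cell line. The line called Parental lacks the synthetic kinase, and the line called Dmr-PERK stably expresses it, as a fusion of the mouse PERK kinase domain with DmrB, a domain that the ligand AP20187 (the dimerizer) brings together in pairs. All samples carry the genotype label WT, and the sources used here do not say whether Dmr-PERK cells are 1 clone. Each line was left untreated for 0, 4, 8, 16 or 24 h, or was given the dimerizer at 0.2 nM (the figure of the series' design text, to which the slightly lower dose in the sample titles rounds), thapsigargin at 100 nM or sodium arsenite at 0.05 mM for 2, 4, 8, 16 or 24 h. Thapsigargin blocks the calcium pump of the endoplasmic reticulum and arsenite causes oxidative stress, and the doses were matched by the submitters on the phosphorylation of eIF2alpha. With 3 wells per group there were 40 groups and 120 libraries, and nothing in the labels says whether the wells were separate cultures, so p-values measure the spread between wells.

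Chaperonins are barrel-shaped complexes that enclose an unfolded protein and let it fold inside, using ATP. TRiC folds actin and tubulin among many cytosolic clients, and receives some of them from prefoldin; each of its rings carries one copy of every subunit. HSP60 forms the ring of the mitochondrial matrix and HSP10 closes it as a lid. The heat shock factor HSF1 is known to act on chaperone genes through heat shock elements, while the integrated stress response, started by eIF2alpha kinases such as PERK, raises the transcription factor ATF4, which acts through C/EBP-ATF response elements.

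The promoters of HSPD1, HSPE1 and TCP1 are shown because HSPD1 and HSPE1 share one region of chromosome 2 and because these 3 genes were the members already higher after 2 h of arsenite in Dmr-PERK cells. Windows from RefSeq (GRCh38.p14), 250 bases before to 50 after an annotated start, matched 9 of the 10 members by symbol (all but CCT6A), with 12 windows in all. The sequences are the 250 bases before the start, 5′ to 3′ on the gene's strand, with matches to the heat shock elements defined after them in capitals. The HSPD1 sequence is chr2:197499841-197500090 on the minus strand, HSPE1 is chr2:197500129-197500378 on the plus strand, and TCP1 is chr6:159789603-159789852 on the minus strand.
HSPD1, second annotated start: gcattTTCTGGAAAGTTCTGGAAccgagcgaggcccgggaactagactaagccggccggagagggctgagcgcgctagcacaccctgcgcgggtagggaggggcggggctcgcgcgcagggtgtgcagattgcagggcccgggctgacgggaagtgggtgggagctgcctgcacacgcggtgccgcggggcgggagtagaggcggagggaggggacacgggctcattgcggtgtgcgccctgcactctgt
HSPE1: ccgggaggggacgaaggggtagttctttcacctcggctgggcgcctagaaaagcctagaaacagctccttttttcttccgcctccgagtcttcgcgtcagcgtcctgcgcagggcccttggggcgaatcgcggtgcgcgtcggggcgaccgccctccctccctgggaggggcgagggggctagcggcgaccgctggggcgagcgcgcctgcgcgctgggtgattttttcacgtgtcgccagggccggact
TCP1: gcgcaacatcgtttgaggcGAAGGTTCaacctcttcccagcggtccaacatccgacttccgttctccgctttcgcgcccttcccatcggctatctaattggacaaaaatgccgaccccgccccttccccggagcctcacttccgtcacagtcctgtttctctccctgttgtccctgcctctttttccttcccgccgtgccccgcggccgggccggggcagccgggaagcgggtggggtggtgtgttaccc

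A heat shock element of 3 units (TTC, GAA and TTC with 2 free bases, NN, between neighbours, on either strand) was present in 1 of the 12 windows, that of the second HSPD1 start. Of all 35116 promoter windows of the same length, 0.49% held it. In HSPD1 it matched at 2 overlapping places that together span 18 bases, chr2:197500068-197500085. These lie 245 to 228 bases before the second HSPD1 start and 311 to 294 bases before the start of HSPE1 on the opposite strand. They lie downstream of the first HSPD1 start, whose window held no such element. HSPD1 and HSPE1 start 105 or 539 bases apart, depending on which HSPD1 start is taken, and are transcribed away from each other. Shorter elements of 2 units, TTCNNGAA or GAANNTTC, which also lie inside the longer one, were found in HSPD1, in TCP1 (GAAGGTTC, 231 to 224 bases before the start), in the second CCT2 window (GAAATTTC, 89 to 82 before) and in the second CCT4 window (TTCTGGAA, 38 to 45 after). Either 2-unit element was present in 13.5% of all windows. The C/EBP-ATF response element, searched as TGATGNAA on both strands, was in none of the 12 windows and in 3.62% of all windows. These matches are letters in a window, and no binding was measured.

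Library totals ran from 12869311 to 56504690 estimated counts, and a member had from 1087 to 208294 of them in 1 library. EIF2AK3, the PERK gene, lay between 390.5 and 1484 CPM (counts scaled by library size) in the 60 Dmr-PERK libraries and between 22.7 and 175 CPM in the 60 Parental libraries, without overlap. In Dmr-PERK cells this row can hold reads of the mouse kinase domain of the construct as well as of the human gene. The 2 sources cannot be told apart here. Of 8 osteoblast markers, COL1A1 and RUNX2 were the highest in both lines, at means of 1083 and 31.3 CPM in untreated Dmr-PERK wells. Untreated Parental wells had 4112 and 45.7 CPM (n = 15 each). ALPL and SPP1 had means between 1.82 and 11.4 CPM, COL1A2 and BGLAP at most 0.84 CPM, and SP7 and IBSP at most 0.029 CPM. Of the epithelial markers, KRT18 was at 591 CPM in Dmr-PERK and 334 CPM in Parental wells, and the others at most 7.24 CPM. One library, Parental arsenite 24 h replicate 3, deviated from its group by more than 2 times the median deviation of all libraries, and Parental arsenite values at 24 h and over 4 to 24 h include it unless stated. Reads can be shared with near-identical copies: pseudogenes and the read-through gene HSPE1-MOB4 together held 2.43% to 15.4% of the summed estimated count of HSPE1 and its copies, those of CCT6A 1.05% to 5.18%, and those of the other members at most 1.14%. In the GENCODE 29 annotation HSPD1 overlaps HSPE1 on the opposite strand, as TCP1 overlaps ACAT2, CCT3 TSACC, CCT4 COMMD1 and CCT5 AC012640.4; the kit marks strand, but the sources used here do not say whether the counting used it.

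In untreated wells the TRiC subunits were not equally abundant as transcripts. CCT5 was the highest member per length, at 574 ± 9.23 TPM (the authors' length- and depth-scaled transcript abundance; SD, n = 3) in Dmr-PERK wells at 0 h, and CCT8 came next at 490.5 ± 15 TPM. HSPD1 followed, at 419.6 ± 15 TPM. CCT6A (328 ± 8.61 TPM) and TCP1 (314 ± 1.47 TPM) stood below it. CCT7 (286 ± 5.07 TPM) and HSPE1 (278 ± 12.4 TPM) did not differ beyond their summed SDs. The same held for CCT4 (238 ± 2.57 TPM) and CCT2 (237 ± 8.79 TPM), which stood below CCT3 (258 ± 5.23 TPM). Parental wells kept CCT5, CCT8 and HSPD1 as the leading 3, but had CCT7 in the fourth place, at 385 ± 0.904 TPM.

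CCT7, the eta subunit, was the member that set the lines apart most in untreated wells. At 0 h it was at 329, 319 and 329 CPM in Dmr-PERK wells and at 423, 417 and 429 CPM in Parental wells, and the 2 sets of wells did not overlap. Over all 5 untreated times it was lower in Dmr-PERK cells (log2 fold change -0.36, SE 0.017, adjusted p = 1.78e-35). HSPE1 (0.28), HSPD1 (0.24) and CCT6A (0.17, log2 differences) were higher. In all, Dmr-PERK cells had 7 members higher and 2 lower, against a background of 62.5% of all genes called either way, and CCT5 did not pass the test.

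Untreated cultures themselves moved, so that every treatment from 4 h on was set against untreated wells of the same time, which the 2 h groups lack. In Dmr-PERK wells HSPD1 was at 608, 585 and 572 CPM at 0 h, at 1003, 1039.6 and 1025 CPM at 16 h and at 772, 734 and 804 CPM at 24 h, so the 16 h wells were the highest. Parental wells followed the same course, from 518, 496 and 519 CPM at 0 h to 821, 806 and 768 CPM at 16 h and 633, 658 and 606 CPM at 24 h. All 10 members passed the test of change over the 5 untreated times in Dmr-PERK cells (background 53.4%) and all 10 in Parental cells (background 55.4%). At 16 h against 0 h all 10 had risen in both lines (higher calls took 17.0% of all genes in Dmr-PERK and 20.1% in Parental cells), by a median log2 fold change of 0.48 in Dmr-PERK and 0.37 in Parental cells.

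**Figure D1:**
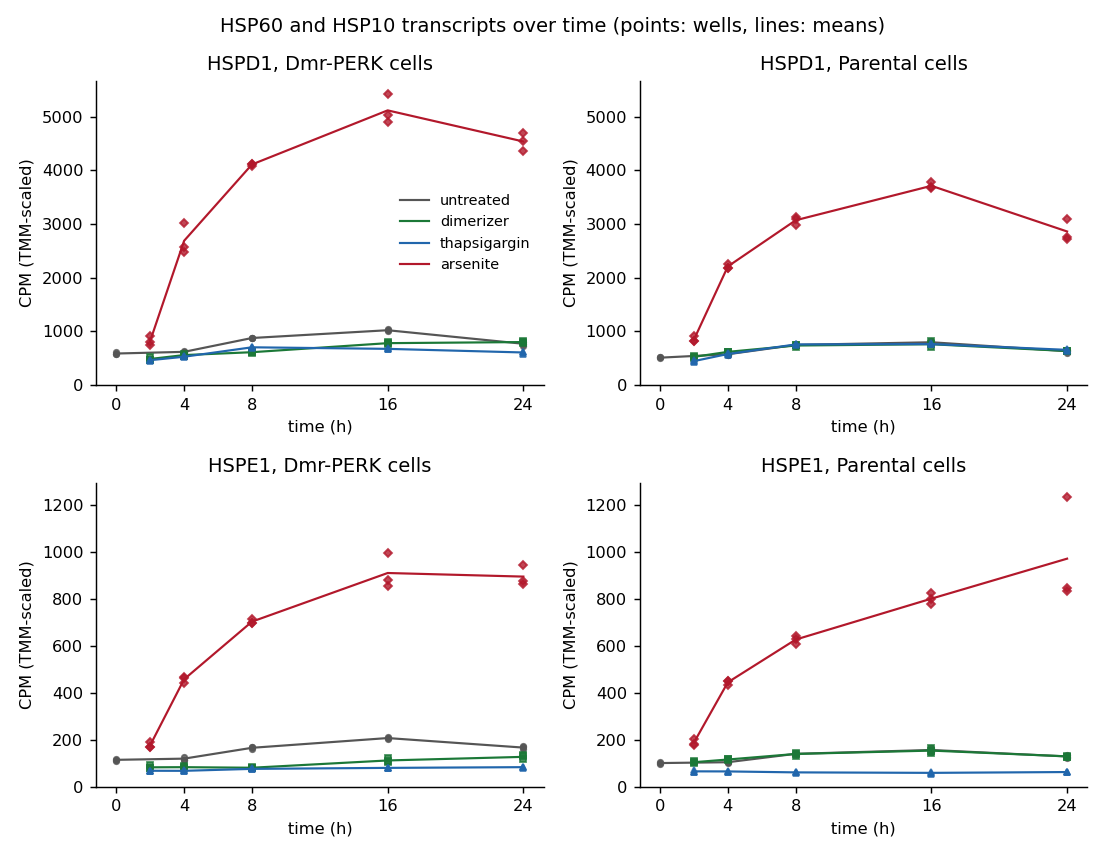
HSPD1 (top) and HSPE1 (bottom) in CPM against time in hours, in Dmr-PERK (left) and Parental (right) cells; points are single wells and lines join the means of 3 wells. Arsenite wells of HSPD1 lie above all others from 4 h on, and HSPE1 lies under its untreated level with dimerizer in Dmr-PERK cells and with thapsigargin in both lines.

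Dimerizer, the ligand of the fused kinase, lowered the transcripts of the mitochondrial chaperonin in Dmr-PERK cells, HSPE1 more than HSPD1. These are bulk libraries, in which fewer cells with a transcript and less RNA per cell cannot be told apart. HSPE1 was at 170.0, 168 and 160.1 CPM in untreated wells at 8 h and at 80.9, 83.0 and 79.5 CPM with dimerizer. At 16 h the untreated wells were at 202, 212 and 208 CPM and the dimerizer wells at 105, 122 and 109 CPM. Dimerizer wells were below untreated wells of the same time, without overlap, at all 4 times from 4 to 24 h. The log2 fold change of HSPE1 was -0.52 at 4 h, -1.03 at 8 h, -0.89 at 16 h and -0.39 at 24 h, so that it was lowest at 8 h and nearer to untreated at 24 h. Averaged over these times, HSPE1 stood at 0.612 times the untreated level (log2 fold change -0.71, SE 0.034, adjusted p = 1.60e-35 by edgeR's quasi-likelihood test with Benjamini-Hochberg adjustment over all genes, as for every adjusted p here).

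HSPD1 moved with HSPE1 but less, and had returned by 24 h. At 8 h it was at 882, 882 and 869 CPM untreated and 622, 616 and 601 CPM with dimerizer. At 24 h the untreated wells were at 772, 734 and 804 CPM and the dimerizer wells at 791, 814 and 801 CPM, and the 2 groups overlapped. The log2 fold change went from -0.52 at 8 h through -0.39 at 16 h to 0.059 at 24 h (adjusted p = 0.305 at 24 h), and the mean over 4 to 24 h was -0.25 (SE 0.023).

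TRiC subunits split with dimerizer. Averaged over 4 to 24 h, CCT5, the epsilon subunit, was level (0.00074, 95% interval -0.033 to 0.034). Its effect changed within that time (adjusted p = 2.31e-05 for a change between 4 and 24 h). In the same average, 5 of 8 subunits were lower, and CCT7 and CCT6A were higher. With HSPD1 and HSPE1 this made 7 members lower and 2 higher, against a background of 55.2% of all genes called, 27.7% lower and 27.5% higher. The sizes were small: the median over the 8 subunits was -0.079 on the log2 scale, with -0.030 over all genes tested. TCP1, the alpha subunit, fell most (log2 fold change -0.15, SE 0.019, adjusted p = 3.59e-11). CCT6A, the zeta subunit, rose by 0.034 (adjusted p = 0.0427), a call that was lost in 10 of 14 alternatives, among them DESeq2 (0.016) and the fits without any 1 replicate.

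In edgeR, the small averages over 4 to 24 h hid a change of direction with time in most TRiC subunits, CCT6A and CCT7 among them. CCT6A was at 595, 578 and 579.6 CPM untreated and 493, 491 and 477 CPM with dimerizer at 8 h, so that dimerizer wells were the lower ones. At 24 h untreated wells were at 503, 470.4 and 490.1 CPM and dimerizer wells at 650.0, 640.1 and 629 CPM, now the higher ones, again without overlap. Its log2 fold change went from -0.26 at 8 h to 0.15 at 16 h and 0.39 at 24 h (adjusted p = 2.77e-27 for a change of the effect between 4 and 24 h). CCT7 went from -0.10 at 4 h to 0.37 at 24 h, when its wells were at 386, 374 and 394 CPM untreated and 482, 513 and 499 CPM with dimerizer. On TPM, CCT7 was already slightly above untreated at 4 h, so its change of sign depended on the scale. The dimerizer effect changed with time for all 10 members (background 42.1%). At 24 h, 6 TRiC subunits were higher than untreated and none lower (background 48.1% either way), while HSPE1 was still lower and TCP1, CCT8 and HSPD1 did not pass the test.

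**Figure D2:**
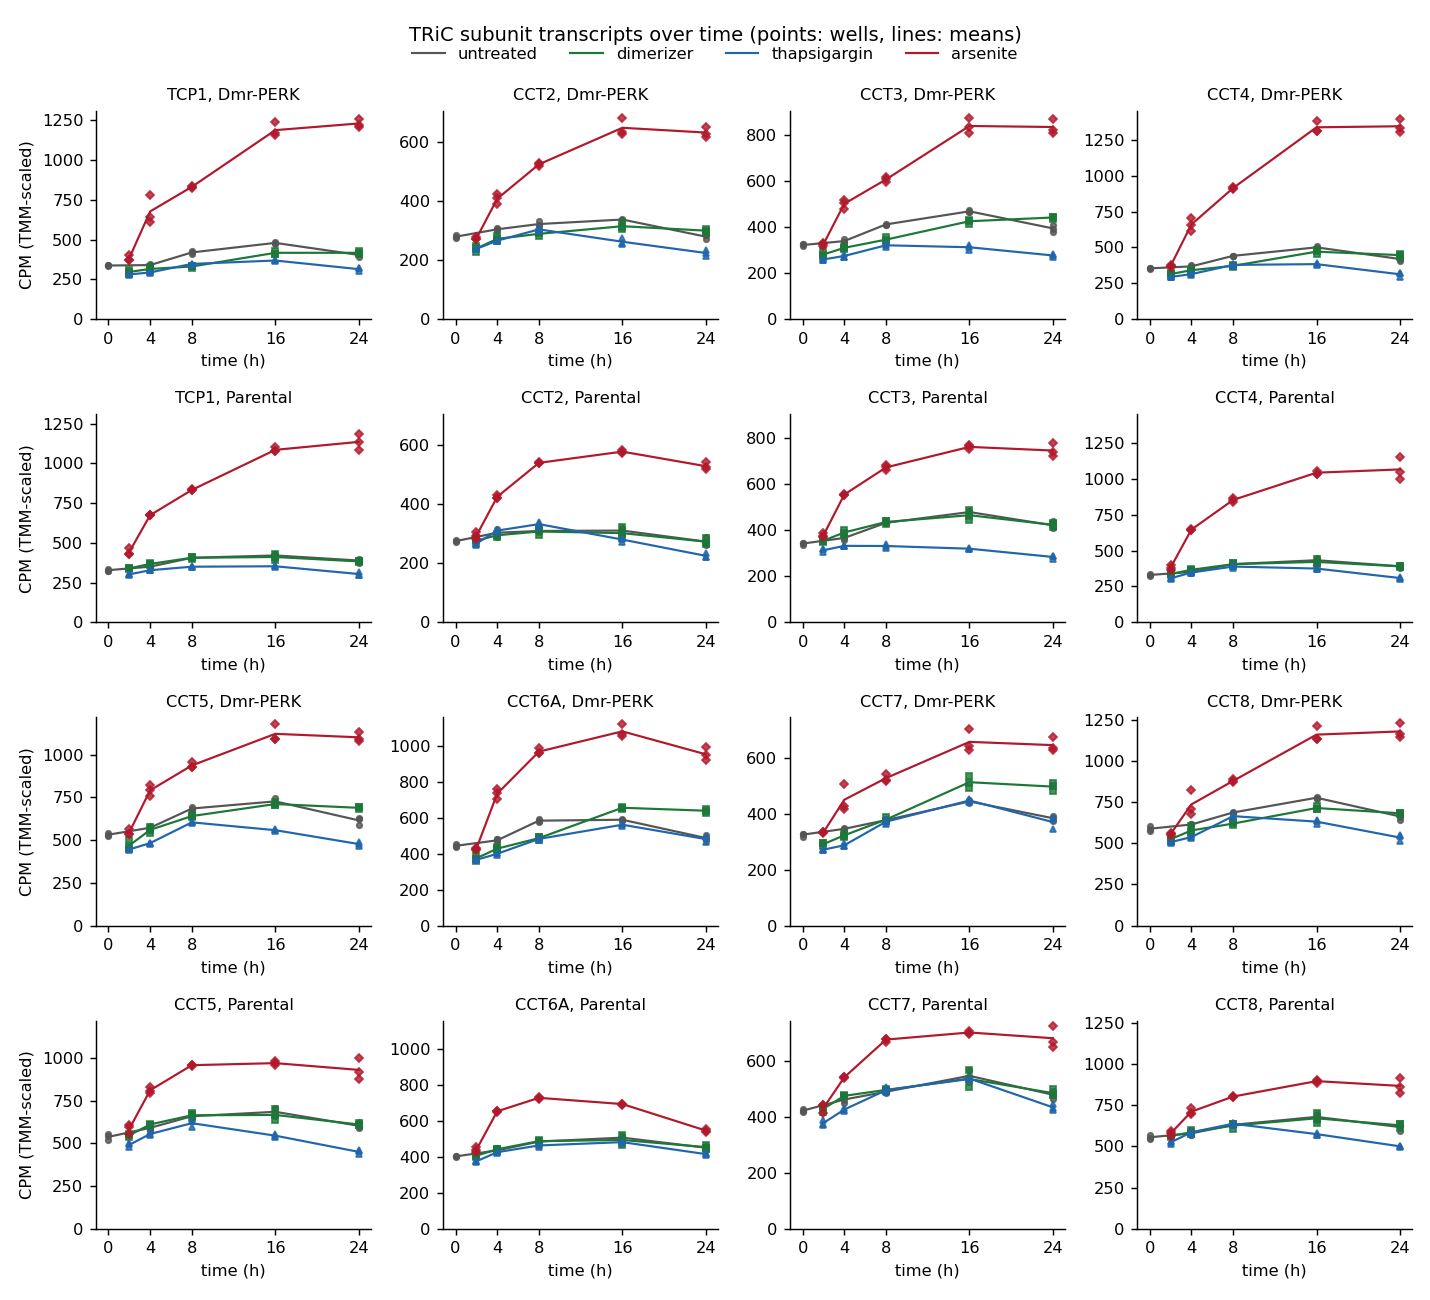
The 8 TRiC subunits in CPM against time in hours, with Dmr-PERK and Parental panels of each gene stacked and on one scale; points are single wells and lines join the means of 3 wells. Arsenite wells rise above all others in every panel from 4 h on, and the dimerizer wells of CCT6A and CCT7 rise above the untreated wells in Dmr-PERK cells at 16 and 24 h.

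In Parental cells, which lack the fused kinase, none of the 10 members passed the test with dimerizer over 4 to 24 h (background 0.582%) or at 4, 8, 16 or 24 h (backgrounds 7.52%, 0.00%, 0.00% and 0.00%). With edgeR 3 members had an unadjusted p under 0.05 at 4 h and 0 in the mean or at the other times, and DESeq2 called 1 at 4 h and 0 otherwise. HSPE1 was at 165, 157 and 149 CPM untreated and 165, 152 and 145 CPM with dimerizer at 16 h, and the groups overlapped. Its mean log2 fold change was 0.031 (95% interval -0.034 to 0.10). The widest effect among the other members was that of CCT2, -0.023 (95% interval -0.058 to 0.011). Tested directly, the dimerizer effect was lower in Dmr-PERK than in Parental cells for HSPE1 (difference -0.74, SE 0.047, adjusted p = 2.40e-26), HSPD1 (-0.25), TCP1 (-0.15), CCT3 (-0.11), CCT4 (-0.093) and CCT8 (-0.082), and with the other sign for CCT7 (0.11). It did not for CCT2, CCT5 and CCT6A, and the background was 47.0%. CCT6A passed at single times, with a difference of -0.27 at 8 h and of 0.38 at 24 h.

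Thapsigargin lowered HSPE1 in both lines. In Parental wells at 16 h HSPE1 was at 165, 157 and 149 CPM untreated and 60.0, 56.3 and 61.7 CPM with thapsigargin. Dmr-PERK wells at that time were at 202, 212 and 208 CPM untreated and 81.3, 78.5 and 81.9 CPM with thapsigargin. In neither line did any thapsigargin well from 4 to 24 h reach the lowest untreated well of those times. The mean log2 fold change was -1.08 (SE 0.034) in Dmr-PERK and -1.08 (SE 0.035) in Parental cells, a level of 0.474 and 0.473 times untreated, with a difference between the lines of 0.0024 (95% interval -0.093 to 0.10).

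Over 4 to 24 h the effect of thapsigargin on HSPD1 depended on the line. At 2 h, against 0 h, HSPD1 was lower in both lines and the difference between the lines did not pass. In Dmr-PERK cells at 16 h it was at 1003, 1039.6 and 1025 CPM untreated and 689, 673 and 664 CPM with thapsigargin, and in Parental cells at 821, 806 and 768 and 758, 761 and 776 CPM. The first 2 groups were apart and the other 2 overlapped. Over 4 to 24 h HSPD1 fell in Dmr-PERK cells (log2 fold change -0.37, SE 0.023, adjusted p = 2.62e-28) and did not pass the test in Parental cells (0.0052, 95% interval -0.039 to 0.050), and the difference between the lines passed (difference -0.38, SE 0.032, adjusted p = 5.30e-18). The untreated level of HSPD1 was itself higher in Dmr-PERK cells, as given above.

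All 8 TRiC subunits were lower with thapsigargin in both lines over 4 to 24 h. With HSPD1 and HSPE1 that was 10 of 10 members in Dmr-PERK cells (background 32.2% lower) and 9 of 10 in Parental cells (background 35.0% lower). CCT3, the gamma subunit, fell most: at 16 h its wells were at 466, 466 and 471 CPM untreated and 312, 321 and 302 CPM with thapsigargin in Dmr-PERK cells, and at 485, 481 and 469 and 318, 319 and 321 CPM in Parental cells. Its mean log2 fold change was -0.44 (SE 0.016) in Dmr-PERK and -0.42 (SE 0.016) in Parental cells. CCT7 fell least (-0.083 and -0.067), and its call was lost in 2 of 13 alternatives over the same times in Dmr-PERK cells. In Parental cells the calls of CCT7 and CCT2 were each lost in 1 of 13. Over 8 to 24 h, 7 of the subunits were lower in Dmr-PERK cells. The fall was larger in Dmr-PERK cells for CCT2 (difference -0.17), CCT4 (-0.16), CCT8 (-0.084), CCT6A (-0.080) and TCP1 (-0.076). With HSPD1 this made 6 members, against a background of 14.4% lower and 25.7% either way. The calls of TCP1, CCT6A and CCT8 were lost without the filter on low counts and on TPM. At 4, 8, 16 and 24 h, 4, 3, 7 and 8 subunits were lower in Parental cells (backgrounds 19.7%, 25.3%, 29.5% and 27.9% lower). In Dmr-PERK cells 8, 6, 7 and 6 were lower at these times (backgrounds 19.9%, 23.8%, 26.2% and 27.5% lower). In Parental cells CCT2 was higher at 8 h (0.10) and lower at 24 h (-0.28).

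**Figure D3:**
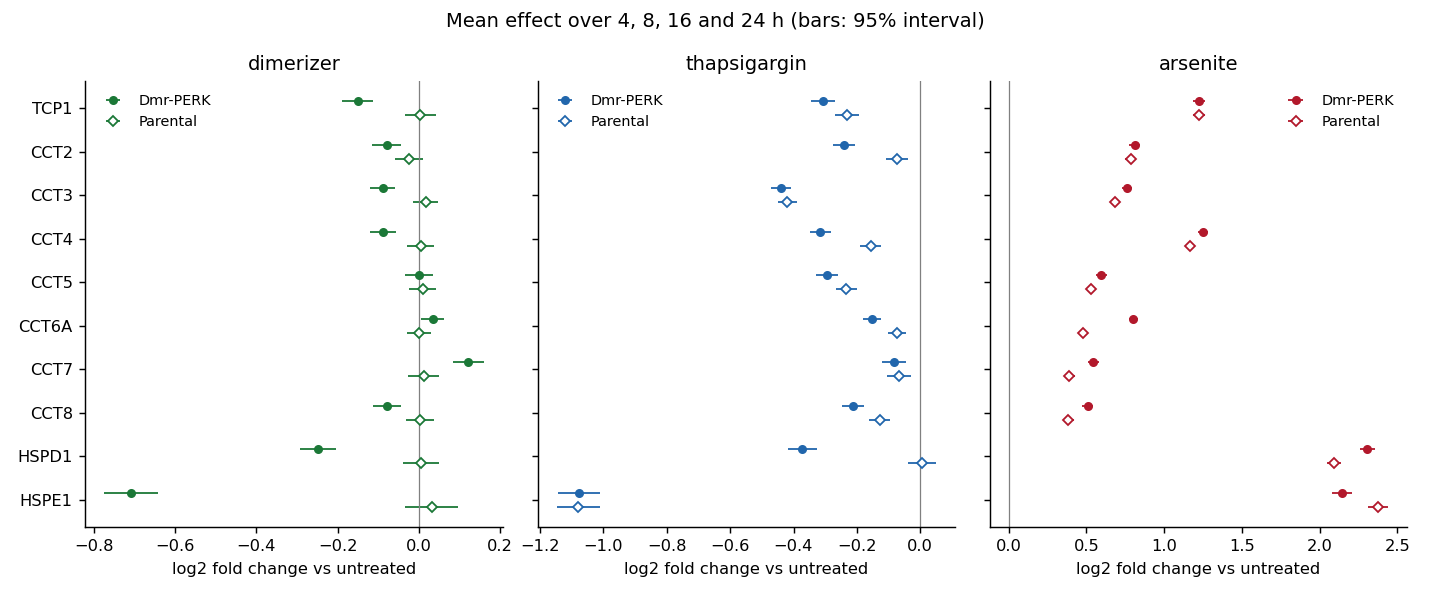
Mean log2 fold change against untreated wells over 4, 8, 16 and 24 h, one panel per treatment with its own horizontal scale; filled circles are Dmr-PERK cells, open diamonds Parental cells, and bars are 95% intervals. HSPE1 lies furthest to the left with dimerizer in Dmr-PERK cells (-0.71) and with thapsigargin in both lines (-1.08), and HSPD1 and HSPE1 lie furthest to the right with arsenite.

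Arsenite raised all 10 members in both lines, HSP60 and HSP10 far more than TRiC. HSPD1 in Dmr-PERK wells at 4 h was at 627, 615 and 617 CPM untreated and 2570.2, 2483 and 3016 CPM with arsenite. At 16 h the arsenite wells reached 5419, 4912 and 5029.8 CPM. In Parental wells at 16 h HSPD1 was at 821, 806 and 768 CPM untreated and 3683, 3681 and 3779 CPM with arsenite. No arsenite well overlapped an untreated well of the same time from 4 h on. Over 4 to 24 h HSPD1 stood at 4.95 times untreated in Dmr-PERK cells (log2 fold change 2.31, SE 0.023, adjusted p = 4.69e-93) and at 4.27 times in Parental cells (log2 fold change 2.09).

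HSPE1 rose to a similar extent, with the lines in the opposite order. Dmr-PERK wells at 24 h were at 168, 161 and 173 CPM untreated and 877, 864 and 945 CPM with arsenite. Parental wells were at 125, 134 and 129 and 845, 834 and 1236 CPM, the last of these values being from the library that stands apart. The mean log2 fold change over 4 to 24 h was 2.14 (SE 0.032) in Dmr-PERK and 2.38 (SE 0.033) in Parental cells. The difference between the lines was -0.23 (adjusted p = 5.73e-06) for HSPE1 and 0.21 (adjusted p = 1.24e-08) for HSPD1. Without that library HSPE1 stood at a log2 fold change of 2.32 over 4 to 24 h and 2.69 at 24 h in Parental cells, and the difference between the lines was -0.18 (adjusted p = 1.57e-06, edgeR). At 24 h the line difference of HSPE1 went from -0.49 to -0.28 when that library was left out, and the same 9 members passed. HSPD1 at 24 h in Parental cells went from 4.53 to 4.31 times untreated.

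Among TRiC subunits arsenite raised CCT4, the delta subunit, and TCP1 most. TCP1 in Dmr-PERK wells at 24 h was at 407, 389 and 414 CPM untreated and 1221, 1209.5 and 1259.7 CPM with arsenite. CCT4 was at 418, 409 and 431 and 1333, 1305 and 1397 CPM. They stood at 3.05 and 3.21 times the untreated level at 24 h in Dmr-PERK cells, and at 2.92 and 2.73 times in Parental cells (2.96 and 2.60 times without the library that stands apart). Over 4 to 24 h the log2 fold changes of the 8 subunits ran from 0.51 (CCT8) to 1.25 (CCT4) in Dmr-PERK cells and from 0.38 (CCT8) to 1.22 (TCP1) in Parental cells. Their medians were 0.78 and 0.61, where all genes tested had medians of 0.12 and 0.092. The 10 of 10 members that rose stand beside a background of 44.4% of all genes called higher in Dmr-PERK and 42.7% in Parental cells.

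CCT6A differed between the lines more than any other member with arsenite. In Dmr-PERK wells at 24 h it was at 503, 470.4 and 490.1 CPM untreated and 947, 921 and 993 CPM with arsenite. Parental wells were at 456, 460.5 and 438 and 540.4, 555 and 546 CPM, higher too but by far less. The log2 fold change in Dmr-PERK cells grew from 0.63 at 4 h to 0.97 at 24 h, while in Parental cells it went from 0.58 at 4 h to 0.28 at 24 h. The difference between the lines was 0.33 (SE 0.021) over 4 to 24 h and 0.69 (SE 0.041) at 24 h. The Parental value at 24 h depended on the scale: in TPM, CCT6A was at 351 ± 8.20 untreated and 292 ± 38.3 with arsenite (SD, n = 3), and limma on log2(TPM + 1) gave -0.27. On that scale CCT5 (-0.098), CCT7 (-0.059) and CCT8 (-0.083) were also negative there. Without the library that stands apart the values were -0.37 for CCT6A, -0.076 for CCT5, -0.12 for CCT7 and -0.082 for CCT8, and the edgeR value of CCT6A was 0.27. With arsenite in Parental cells, TPM moved the median of all genes by -0.18 over 4 to 24 h and RLE scaling moved it by 0.11, while the line difference of CCT6A stood at 0.34 on TPM. Of the other subunits, CCT3, CCT4, CCT5, CCT7 and CCT8 also rose more in Dmr-PERK cells, by differences of 0.066 (CCT5) to 0.15 (CCT7), and TCP1 and CCT2 did not pass (background 42.2%). Without replicate 1 of every group CCT3 (0.038), CCT4 (0.034) and CCT5 (0.015) did not pass. The line differences with arsenite varied with time. At 2 h, against 0 h, TCP1 (-0.25), CCT6A (-0.18) and HSPD1 (-0.25) were lower in Dmr-PERK than in Parental cells (background 1.41% lower) and no member was higher. At 4 h none of the 10 passed (edgeR, background 11.7%), and 2 had an unadjusted p under 0.05. Dmr-PERK arsenite wells at 4 h were spread widely. Replicates 3 and 2 deviated from their group by 0.144 and 0.136, with a median of 0.102 over all libraries (root mean square, log2(CPM + 1)). At 8 h CCT6A (0.14) and HSPD1 (0.19) were larger in Dmr-PERK cells (background 24.5% either way). At 24 h 8 were larger and 1, HSPE1, smaller in Dmr-PERK cells (background 36.6%).

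**Figure D4:**
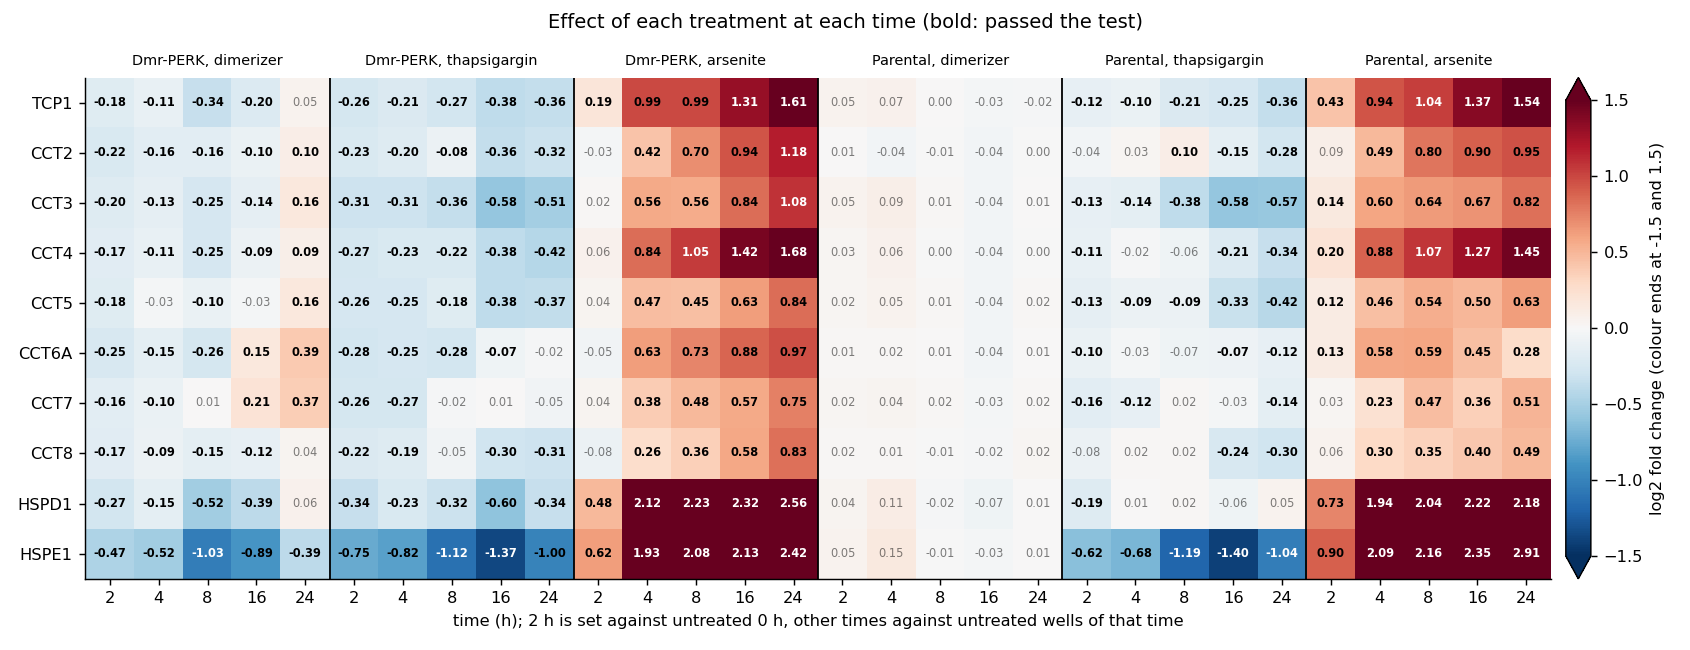
Log2 fold change against untreated wells for each member (rows), line, treatment and time in hours (columns); bold values passed the test and faded values did not, and colour ends at -1.5 and 1.5. Parental dimerizer columns hold no bold value, HSPE1 is negative in every dimerizer column of Dmr-PERK cells and every thapsigargin column, and arsenite columns are positive for all members from 4 h on.

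The first time point, 2 h, had no untreated wells of its own and was set against untreated 0 h. With dimerizer in Dmr-PERK cells all 10 members were already lower (background 9.13% lower), and each group of 3 wells lay below the untreated wells. HSPE1 was at 91.5, 79.3 and 78.1 CPM against 119, 115 and 111 CPM. The 8 TRiC subunits lay between -0.25 (CCT6A) and -0.16 (CCT7) on the log2 scale, HSPD1 at -0.27 and HSPE1 at -0.47. Thapsigargin in Dmr-PERK cells gave the same count, 10 lower (background 15.0% lower), and in Parental cells 8 were lower (background 12.6% lower), all but CCT2 and CCT8. With arsenite at 2 h HSPE1 (0.62), HSPD1 (0.48) and TCP1 (0.19) were higher in Dmr-PERK cells (background 10.5% higher) and the other 7 did not pass. Parental cells had 7 members higher (background 10.5% higher), led by HSPE1 (0.90), HSPD1 (0.73) and TCP1 (0.43). With untreated 4 h wells as the control instead, all 10 stayed lower in Dmr-PERK cells with dimerizer, and 5 became lower in Parental cells with dimerizer. At 2 h the effect of dimerizer was lower in Dmr-PERK than in Parental cells for all 10 members against 0 h (background 3.52% lower, 6.86% either way).

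Treatments were also compared with each other at matched times, without the untreated wells that the comparisons above share. In Dmr-PERK cells all 10 members were higher with dimerizer than with thapsigargin over 2 to 24 h (background 26.2% higher), by log2 differences of 0.11 (HSPD1) to 0.35 (HSPE1). CCT3 was at 433, 445 and 444 CPM with dimerizer and 279, 280.3 and 269 CPM with thapsigargin at 24 h, a time at which all 10 members were higher with dimerizer (background 23.5% higher) and no wells overlapped. At 8 h the picture was mixed, with 2 members higher, 2 lower and 6 not passing (background 33.9%). Against arsenite all 10 were lower with dimerizer (background 42.6%) and all 10 lower with thapsigargin (background 43.5%) in Dmr-PERK cells. HSPE1 had the widest gap, -2.85 between thapsigargin and arsenite in Dmr-PERK and -3.07 in Parental cells.

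HSP10 is the lid of the HSP60 ring, so the ratio of their transcripts per length was followed in each library. Untreated Dmr-PERK wells from 4 to 24 h (n = 12) had a lowest value of 0.614, a median of 0.731 and a highest value of 0.795 TPM of HSPE1 per TPM of HSPD1. With dimerizer the ratio had a lowest value of 0.463, a median of 0.501 and a highest value of 0.589, and with thapsigargin a lowest value of 0.374, a median of 0.425 and a highest value of 0.498. All dimerizer and thapsigargin wells were below all untreated wells. In Parental cells the mean went from 0.662 ± 0.0493 untreated (SD, n = 12) to 0.304 ± 0.0421 with thapsigargin and 0.681 ± 0.0377 with dimerizer. Over 4 to 24 h arsenite left the ratio at 0.670 ± 0.0886 in Dmr-PERK cells, a spread over 4 times that overlaps untreated. At 8 h it was 0.632 ± 0.0118 there against 0.678 ± 0.00405 untreated. At 16 h it was 0.697 ± 0.0304 against 0.741 ± 0.00951. At 4 and 24 h its mean was also lower, with SDs that overlap. In Parental cells arsenite wells had higher means than untreated at 4 h (0.657 against 0.596), 8 h (0.724 against 0.646) and 16 h (0.823 against 0.690). These SDs were at most 0.0157. At 24 h the Parental wells were at 1.18, 1.15 and 1.49, the last from the library that stands apart, against 0.716 ± 0.0227 untreated (SD, n = 3). All 3 lay above the untreated wells, also without that library.

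Within TRiC, arsenite shifted the proportions of the subunits. TCP1 made up 11.6% ± 0.520 of the summed TRiC TPM in untreated Dmr-PERK wells (SD, n = 12, 4 to 24 h) and 16.7% ± 1.42 with arsenite. CCT4 went from 8.86% ± 0.219 to 12.4% ± 1.60. CCT5 went the other way, from 21.4% ± 0.422 to 18.0% ± 1.37, as did CCT8, from 17.5% ± 0.270 to 14.7% ± 0.386. With dimerizer and thapsigargin TCP1 stood at 10.7% ± 0.432 and 11.3% ± 0.269, and CCT7 at 11.7% ± 0.823 and 11.9% ± 1.26 against 10.5% ± 0.391 untreated. The share of CCT7 was larger late: at 16 h it was 10.8% ± 0.129 untreated, 12.5% ± 0.277 with dimerizer and 13.3% ± 0.194 with thapsigargin (SD, n = 3). The most abundant subunit had 2.70 ± 0.163 times the TPM of the least abundant in untreated Dmr-PERK wells and 2.30 ± 0.0932 times with arsenite.

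**Figure D5:**
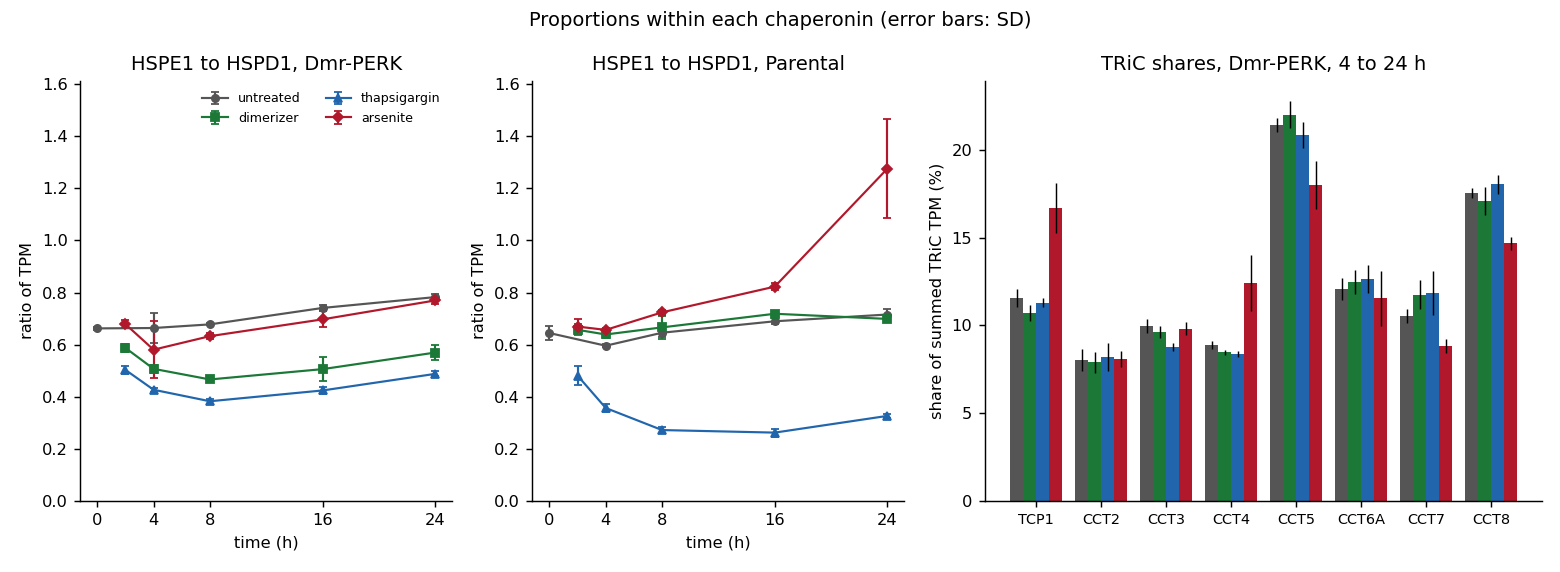
Left and middle, the ratio of HSPE1 to HSPD1 TPM against time in hours in each line (means of 3 wells, bars are SDs); right, the share of each subunit in the summed TRiC TPM in Dmr-PERK cells from 4 to 24 h (means of 12 wells, bars are SDs). The ratio lies under untreated with thapsigargin in both lines and with dimerizer in Dmr-PERK cells, and the shares of TCP1 and CCT4 are larger with arsenite.

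Partners of the 2 chaperonins did not all follow them. Of 6 other chaperones of the mitochondrial matrix, all 6 rose with dimerizer in Dmr-PERK cells over 4 to 24 h (median 0.45), while HSPD1 and HSPE1 fell. For these and the lists that follow, the background was 27.5% of all genes higher and 27.7% lower with dimerizer, 30.9% and 32.2% with thapsigargin, and 44.4% and 39.2% with arsenite. All genes tested had median log2 fold changes of -0.030, 0 and 0.12. HSPA9, the mitochondrial HSP70, rose (0.60), as did its J-protein partner DNAJA3 (0.94) and the nucleotide exchange factor GRPEL2 (1.02, log2 fold changes). With thapsigargin 5 of the 6 rose and 1 fell, and with arsenite 4 rose and 2 fell, with HSPA9 at 1.83. The 6 mitochondrial proteases and their partners all rose with dimerizer (median 0.27), among them LONP1 (0.98), the protease of the matrix, AFG3L2 (0.46) and YME1L1 (0.28). In Parental cells none of these 12 passed edgeR's test with dimerizer (1 had an unadjusted p under 0.05, and DESeq2 called 0).

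Clients and helpers of TRiC showed several directions. Of 12 actin and tubulin genes, 11 fell with dimerizer and 12 with thapsigargin in Dmr-PERK cells, with median log2 fold changes of -0.60 and -1.30. The beta-tubulins TUBB3 (-1.56) and TUBB4B (-0.94) and the alpha-tubulin TUBA1A (-1.44) had the smallest adjusted p with dimerizer. With arsenite 5 rose and 7 fell. Prefoldin, which hands clients to TRiC, had 1 subunit that stood out: PFDN2 rose with dimerizer (1.27), thapsigargin (1.49) and arsenite (1.80), while PFDN1 fell with all 3 (-0.32, -0.62 and -0.30). In all, 2 of the 6 prefoldin subunits rose and 2 fell with dimerizer, and PFDN5 was the other that fell (-0.24). Of the 3 phosducin-like partners of TRiC, 2 fell with dimerizer, PDCL (-0.42) and TXNDC9 (-0.078). Of the 5 tubulin cofactors, TBCE (0.27) and TBCC (0.11) rose and TBCD (-0.17) fell.

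Cytosolic chaperones of the heat shock response moved in the same directions as HSPD1 and HSPE1. All 14 fell with dimerizer (median -0.62) and with thapsigargin (-0.87) in Dmr-PERK cells, and all 14 rose with arsenite (2.50). HSPA8 stood at -1.23, -2.33 and 1.17 with the 3 treatments, HSPA1A at -2.27, -3.38 and 6.73, and HSP90AA1 at -0.74, -1.31 and 2.58. All 7 transcripts of the integrated stress response rose with each of the 3 treatments, for example TRIB3, DDIT3 and ASNS with dimerizer (3.46, 3.15 and 2.32). None of these 21 passed edgeR's test in Parental cells with dimerizer (7 had an unadjusted p under 0.05, and DESeq2 called 0). The 3 treatments share their untreated wells, so the values are set side by side only.

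Other genes were ranked by how closely their pattern matched that of the members. Over the 40 group means of log2 CPM, centred within each line, and among 12319 genes with at least 5 CPM on average, the mean of HSPD1 and HSPE1 was most like CACYBP (Pearson r 0.993), AHSA1 (0.991), FKBP4 (0.989), HSP90AB1 (0.984) and STIP1 (0.983). The mean of the 8 TRiC subunits was most like NUDC (0.978), PTGES3 (0.978), MOCS2 (0.972), PPID (0.965) and MRFAP1 (0.964). In all, 48 genes had r over 0.95 with the mean of HSPD1 and HSPE1, and 11 with that of TRiC. These points share libraries and scaling. They include the arsenite groups, and no ranking of genes without arsenite was made. Among the members themselves r had a median of 0.94 over the 28 pairs of TRiC subunits and was 0.95 for HSPD1 with HSPE1. Over the 30 group means without arsenite the values were 0.86 and 0.58.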

How the data were processed

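RNA from 120 wells of U2OS cells was sequenced with a directional kit. Per the submitters' processing notes, Salmon 0.9.1, FastQC 0.11.5 and GRCh38 were used; the role of each, trimming and the strand setting are not given in those notes. The deposited tables hold the authors' estimated counts per gene, mostly not whole numbers, and the authors' TPM (transcript abundance scaled for length and depth). Estimated counts were rounded and scaled by TMM. Of 57665 genes, 26998 passed filterByExpr (minimum count 10). One edgeR 4.0.16 model (R 4.3.3) of the 40 groups was fitted to all libraries with the quasi-likelihood test, with Benjamini-Hochberg adjustment across every gene tested in a given comparison and calls at an adjusted p under 0.05. Levels are CPM on that scaling, and levels between genes are compared on TPM only. The step was tested on simulated counts.

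All members are named. Of each list, up to 3 genes with the smallest adjusted p with dimerizer in Dmr-PERK cells are named, and the 5 genes most like each chaperonin. The members and lists were chosen with earlier results of these data known, so their counts are descriptions. Alternatives were RLE scaling, DESeq2 1.42.0, no filter, a filter of 5 CPM in 3 libraries, limma 3.58.1 on log2(TPM + 1) and log2(TPM + 0.1), a replicate block, leaving out each replicate, fits within a line, other control times, and copies summed with the members. Leaving out 1 Parental arsenite library, in edgeR and on log2(TPM + 1), was added after seeing the data.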

Additional observations from a re-analysis of the deposited data

Results flagged for a closer look

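The effect of a treatment differed between the lines, by the test of that difference in edgeR, for 21 pairs of a member and a treatment over 4 to 24 h. Each value is the log2 effect in Dmr-PERK minus that in Parental cells. With dimerizer it was -0.74 for HSPE1, -0.25 for HSPD1, -0.15 for TCP1, -0.11 for CCT3, -0.09 for CCT4 and -0.08 for CCT8, and 0.11 for CCT7. In Parental cells the effects of these 7 on that treatment lay between 0.0027 and 0.031 and none passed the test, so the differences are close to the Dmr-PERK effects themselves.

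With thapsigargin the difference was -0.38 for HSPD1, -0.17 for CCT2, -0.16 for CCT4, and -0.08 for each of TCP1, CCT6A and CCT8. HSPD1 fell by 0.37 on the log2 scale in Dmr-PERK cells and was at 0.0052 in Parental cells, while HSPE1 fell by 1.08 in both.

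With arsenite the difference was 0.33 for CCT6A, 0.21 for HSPD1, 0.15 for CCT7, 0.12 for CCT8, 0.08 for CCT3, 0.08 for CCT4 and 0.07 for CCT5, and -0.23 for HSPE1. HSPD1 and HSPE1 thus differed between the lines in opposite directions, with log2 effects of 2.31 and 2.14 in Dmr-PERK cells and 2.09 and 2.38 in Parental cells.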

How the results depend on the processing

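With effects averaged over 4 to 24 h, HSPE1 kept its direction and its call in the alternatives run for the dimerizer effect in Dmr-PERK cells (-0.74 to -0.66 on the log2 scale), its line difference (-0.77 to -0.69) and thapsigargin in both lines (Parental -1.10 to -0.98), and HSPD1 did for dimerizer (-0.28 to -0.23) and arsenite (2.08 to 2.48) in Dmr-PERK cells. All 10 members stayed higher with arsenite over 4 to 24 h in both lines. The count of members higher with dimerizer in Dmr-PERK cells was 1, not 2, with RLE scaling, DESeq2, no filter, the stricter filter, either TPM scale and the line's own libraries, and 1 in each fit without 1 replicate. Thapsigargin calls lower by line difference numbered 3, not 6, without a filter and on either TPM scale. With dimerizer, the members higher by line difference numbered 0 to 1 without 1 replicate. Arsenite calls higher by line difference numbered 4 to 7 without 1 replicate. At 2 h, Parental thapsigargin calls lower numbered 5, not 8, on either TPM scale (5 to 9 without 1 replicate or library), and Dmr-PERK arsenite had 1 lower with DESeq2, the stricter filter and either TPM scale (0 to 1 without 1 replicate). On either TPM scale 1 member, HSPD1, was higher with thapsigargin in Parental cells. With untreated 4 h as control, the 2 h counts were 3 lower for Dmr-PERK arsenite, 5 lower for Parental dimerizer, and 4 higher and 1 lower for Parental arsenite. Unless stated, the cause was not tested.

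Values that changed sign were few among those that passed in either fit. With the stricter filter, dimerizer in Dmr-PERK cells gave -0.034 for CCT5 and -0.00099 for CCT6A. On log2(TPM + 1) and log2(TPM + 0.1), the thapsigargin line difference was 0.037 and 0.037 for TCP1, the untreated line difference -0.0066 and -0.0067 for CCT2, dimerizer at 4 h 0.018 and 0.018 for CCT7 and 0.023 and 0.023 for CCT8, and dimerizer at 24 h -0.023 and -0.023 for CCT4. Arsenite in Parental cells at 24 h was -0.098 and -0.098 for CCT5, -0.27 and -0.27 for CCT6A, -0.059 and -0.059 for CCT7, and -0.083 and -0.084 for CCT8; log2(TPM + 1) without the Parental library that stands apart gave -0.076, -0.37, -0.12 and -0.082 for these 4. With untreated 4 h as control, Parental dimerizer at 2 h gave -0.13 for CCT2, -0.11 for CCT5, -0.10 for CCT6A, -0.11 for CCT7 and -0.13 for HSPD1, and Parental arsenite -0.016 for CCT5 and -0.098 for CCT7. A further 179 values passed in neither fit and had either sign.

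Replicate numbers share only a number: over 72 pairs of same-numbered groups their deviations had a median r of 0.0018 (range -0.038 to 0.12), 1 pair was over 0.1, and 28 were highest with their own number. With the replicate block the thapsigargin line difference had 7 members lower, and no other count of members moved. Genes called in Parental dimerizer cells over 4 to 24 h numbered 157, and 291 with DESeq2, 94 without a filter, 28 on log2(TPM + 1), 14 on log2(TPM + 0.1), 330 without the Parental library that stands apart, and 4 to 45 in the fits without replicate 1 or 2. With arsenite 22559 genes were called in Dmr-PERK and 22161 in Parental cells, and 13959 and 13971 with the stricter filter, which tests fewer genes. Genes with a thapsigargin line difference numbered 6939, and 4581 without replicate 2. The share of called genes that were higher by line difference was 44.0% with thapsigargin and 55.7% with arsenite, and 62.3% and 72.1% on log2(TPM + 1).

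The members had at least 1087 estimated counts in each library. Reads shared with copies bear most on HSPE1 and CCT6A, and summing the copies with the members moved 1 count, that of Parental thapsigargin at 2 h, from 8 to 7 lower.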

Other observations

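The read-through gene HSPE1-MOB4, which joins HSPE1 to its neighbour MOB4, did not pass the test with dimerizer or thapsigargin in Dmr-PERK cells (log2 fold changes 0.11 and 0.0098), where HSPE1 fell. With arsenite it rose by 1.14 in Dmr-PERK and by 1.28 in Parental cells, less than HSPE1. The summed TPM of the 8 TRiC subunits over 4 to 24 h was 3235 ± 327 in untreated Dmr-PERK wells (SD, n = 12), 3153 ± 288 with dimerizer, 2820 ± 164 with thapsigargin and 4804 ± 596 with arsenite. In Parental wells it was 3243 ± 206 untreated, 3237 ± 160.5 with dimerizer, 2889 ± 154 with thapsigargin and 4304 ± 369 with arsenite (4341 ± 363 without the library that stands apart, n = 11).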
